A study of Felis catus with 2 samples.

Results

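The genes described here are the patterning transcription factors of 13 families, named HOX, PAX, sine oculis homeobox (SIX2, SIX6 and relatives), LHX, FOX, IRX, MEIS, PBX, OTX, MSX, DLX, TBX and ZIC. Within these families the members are set by symbol, from rows of the deposited expression table that carry a single gene name, and PAX6 and FOXC1 were left out by the rule. The rule gave 112 genes of 14518 with a single gene symbol. Polyadenylated RNA was sequenced from 2 libraries, 1 from a 2 month old cat with primary congenital glaucoma and 1 from an unrelated healthy cat of the same age. The affected cat came from a colony founded by glaucomatous Siamese cats, in which the disease is recessive and tracks with a frameshift insertion in LTBP2. The breed of the control is not given in the sources used here, so family background and disease cannot be told apart. The samples were mixed tissue of the front of the eye, in which ciliary body, trabecular meshwork and sclera came along with the iridocorneal angle, where aqueous humour drains. Each condition has a single library, so replicate error is unknown, no difference between the cats could be tested, and every value describes these 2 libraries.

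Patterning factors bind DNA through a homeodomain, a paired domain, a forkhead, a T-box or zinc fingers, and they assign position and tissue identity in the embryo. The eye is built from several sources that use different members. The optic cup, which is neural, forms the retina and both layers of the ciliary epithelium and relies on LHX2, OTX2, SIX6 and their partners. Surface ectoderm forms the lens and the corneal epithelium. Neural crest and mesoderm around the cup form the corneal stroma, sclera, trabecular meshwork and vessels, and they use forkhead, DLX and MSX genes of the cranial mesenchyme. HOX genes mark positions from the hindbrain backwards, and the crest that reaches the eye is known to lack them.

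Of the 112 genes, 26 were listed at 0 in both libraries, 45 had a value but stayed under 1 FPKM in both, and 41 reached 1 FPKM in at least 1 library. FPKM counts fragments per kilobase of exon, scaled to the depth of the library, so levels of different genes can be compared. The members past that minimum made up 36.6% of the list, against 79.1% of all genes with a single symbol. A value of 0 is given only as listed, because the table also lists GAPDH, which nearly all cells express, at 0 in both libraries. From the steps between low values, 1 fragment on 1 kilobase of effective length was worth 0.0141 FPKM in the normal cat against 0.0148 FPKM in the affected cat. The transcript lengths of the members are not in the table, so their own fragment numbers are not known and the precision of a single value could not be given.

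Marker genes were read beside the tissue label. All 8 trabecular meshwork markers and 7 of 7 listed ciliary epithelium markers reached 1 FPKM in at least 1 library, as did 79.1% of all single-symbol genes. The 8 listed photoreceptor markers and 11 listed lens markers did so too, although neural retina and lens are not in the study's description of the tissue. Since all of these lists passed whole, the counts cannot tell the tissues apart. The lens markers summed to 57351 FPKM in the normal cat against 46666 FPKM in the affected cat, where CRYAA was listed at 0. The ciliary epithelium markers summed to 1474 FPKM in the normal cat against 5262 FPKM in the affected cat, and the photoreceptor markers to 409.0 and 1661 FPKM. Markers of corneal and scleral stroma summed to 4716 and 1016 FPKM, where COL1A2 was listed at 0 in the normal library, and none of the others was. Dissected bulk tissue cannot separate a different number of cells of a type from a different amount of RNA per cell. These shifts run alongside the results given here, and their part in them was not tested.

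LHX2, a LIM homeodomain factor without which the optic cup does not form, had the highest level of all members in both libraries. Its locus lies on chromosome D4 of felCat5 from 85106842 to 85127968. It was listed at 167.0 FPKM in the normal cat against 215.2 FPKM in the affected cat, above 97.4% and 97.8% of the genes past the minimum. LHX2 alone held 24.9% of the summed FPKM of the members in the normal cat against 25.0% in the affected cat. OTX2, which specifies photoreceptors and pigment epithelium, had 84.2 and 63.4 FPKM. It ranked second in the normal cat and, behind ZIC2, was number 3 in the affected cat. TBX2, a T-box factor of the dorsal optic cup, was number 3 in the normal cat at 40.7 FPKM and number 5 in the affected cat at 43.4 FPKM.

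**Figure D1:**
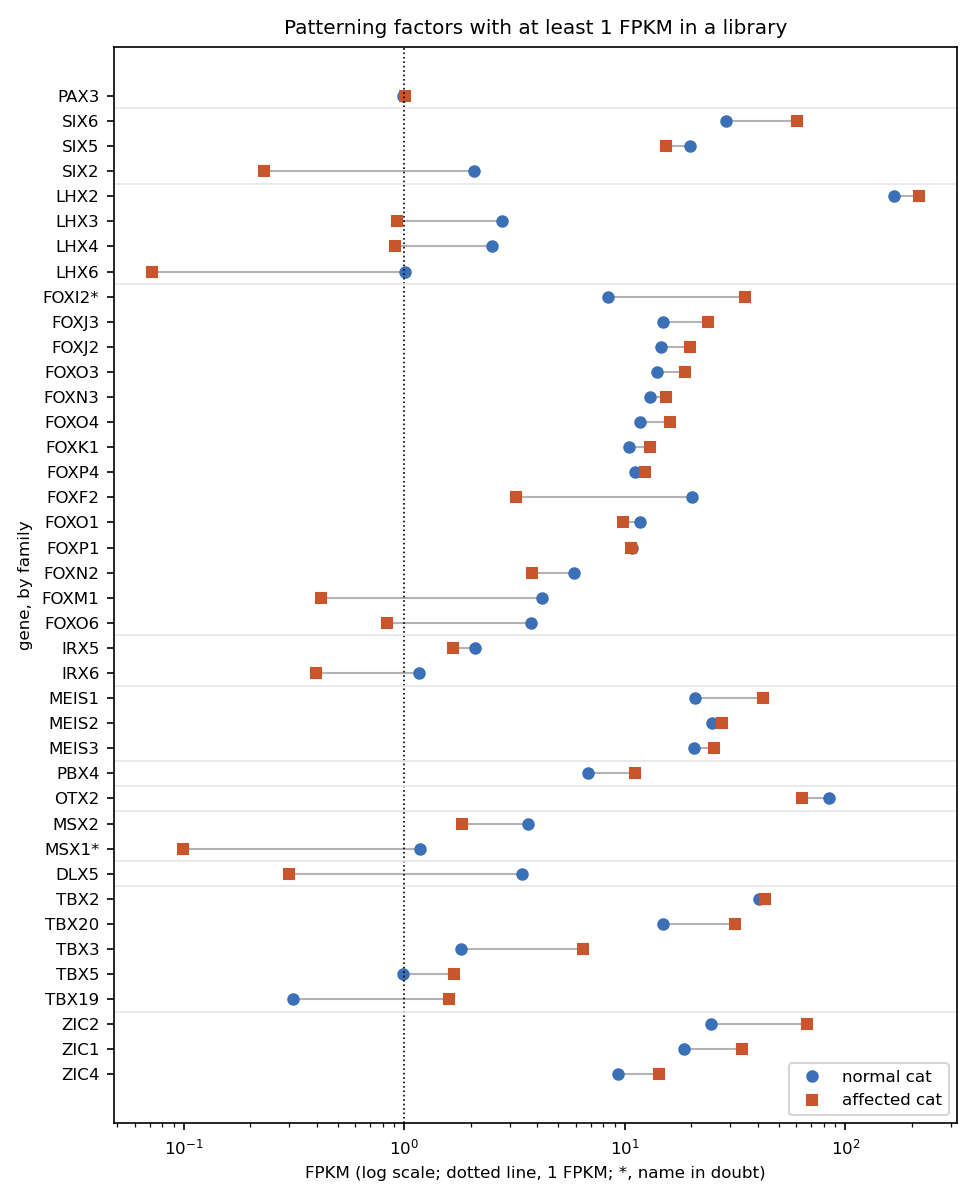
FPKM of the named patterning factors with at least 1 FPKM in a library, on a log axis, with a circle for the normal cat, a square for the affected cat and the families in blocks. LHX2 stands furthest right in both libraries at 167.0 and 215.2 FPKM, and FOXF2 shows the widest gap among genes over 10 FPKM in the normal cat; the asterisk marks a row whose name is in doubt.

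Below these, the MEIS genes, TALE homeodomain factors that bind DNA together with PBX and HOX proteins, were all well expressed. MEIS1 was listed at 20.8 and 42.3 FPKM, MEIS2 at 24.7 and 27.5 FPKM and MEIS3 at 20.6 and 25.3 FPKM, in the order normal and affected. All 3 were higher in the affected library, with log2 ratios from 0.15 to 0.99. Log2 ratios are log2 of (affected + 1) over (normal + 1), with 1 FPKM added to both values, which understates the change of low genes. PBX4, of the partner family, had 6.80 and 11.1 FPKM. PBX3 was listed at 0 in both. The 6 listed cofactors of HOX and TALE proteins were each lower in the affected library, with a median log2 ratio of −0.33, and HDAC1 alone passed 2-fold at 39.9 and 18.0 FPKM.

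Of the 41 members past the minimum, 6 were higher by 2-fold or more in the affected cat, or 14.6%, against 6.43% of the 11477 single-symbol genes past the same minimum. Another 5 were at least 2-fold lower, or 12.2%, against 8.55% of those genes. The median log2 ratio of the members was 0.15, against −0.027 for those genes. With both libraries rescaled to the same sum of FPKM the median was −0.0089 for the members, of which 47 then passed the minimum, and −0.082 for the single-symbol genes. The count of members lower by 2-fold was 10 with 0.1 FPKM added and 10 after that rescaling, and 1 where a mean of 5 FPKM was required, while the count of higher members was 8, 6 and 4. A gene that reaches 1 FPKM in only 1 library is by that filter higher there, so the members were also read by where they passed. Of the 41, 28 reached 1 FPKM in both libraries, 9 in the normal library alone and 4 in the affected library alone. Of the 28, 5 were higher by 2-fold, against 5.93% of the 10504 single-symbol genes that reached it in both, and 1 was lower, FOXF2, against 6.14%. FOXM1, DLX5, FOXO6 and SIX2 had passed through the normal library alone, and these 4 were 44.4% of the 9 such members, against 50.8% of all single-symbol genes that passed there alone. Of the 4 members that passed through the affected library alone 1 was higher by 2-fold, against 37.0% of such genes. The median of the 28 was 0.32, against −0.0064 for those genes.

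**Figure D2:**
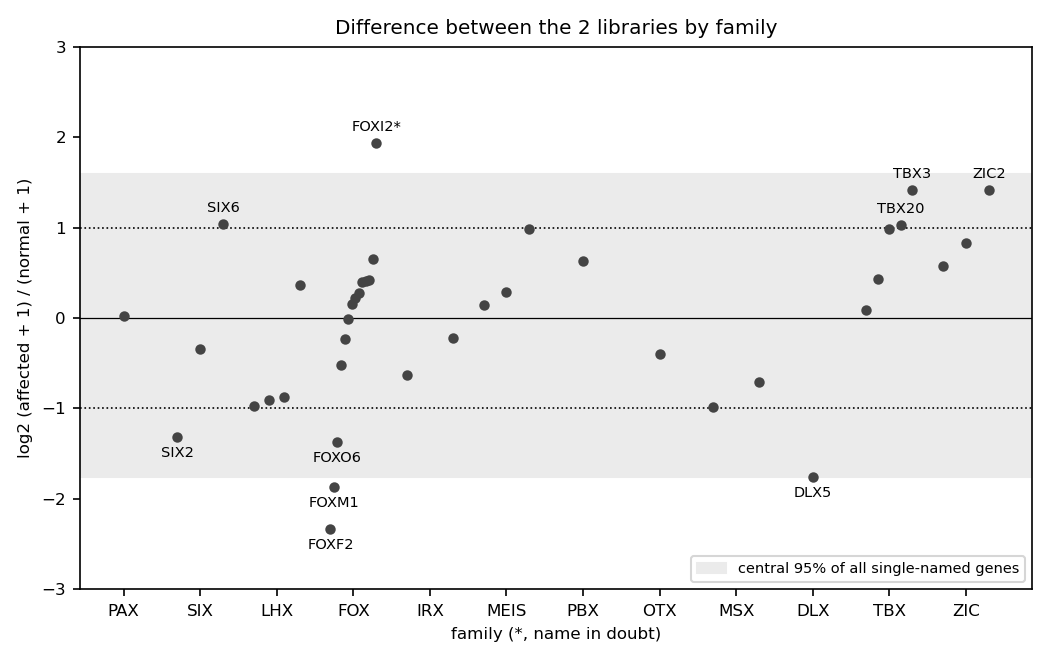
Log2 ratio, affected over normal, of the same patterning factors, by family, with dotted lines at 2-fold and a grey band over the central 95% of all single-symbol genes (−1.76 to 1.598). FOXI2* lies above the band and FOXF2 and FOXM1 below it, and all 3 ZIC points are above 0; points of genes that reached 1 FPKM in only 1 library lie on that side by the filter.

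The ZIC genes, zinc finger factors that pattern the early forebrain and eye, were all higher in the affected cat. ZIC2, on chromosome A1 of felCat5 from 70233904 to 70238792, was listed at 24.5 FPKM in the normal cat against 67.3 FPKM in the affected cat, a ratio of 2.75 and a log2 ratio of 1.42. ZIC1 had 18.6 and 33.8 FPKM, and its neighbour ZIC4 had 9.30 and 14.4 FPKM. Of the 3 only ZIC2 passed 2-fold, and together they summed to 52.5 and 115.5 FPKM.

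Sine oculis homeobox genes encode homeodomain factors of the retinal determination network, and both directions were seen among them. SIX6, a factor of retinal progenitors whose locus has been linked with glaucoma in people, was listed at 28.6 FPKM in the normal cat against 60.2 FPKM in the affected cat, a log2 ratio of 1.05. The SIX6 locus is on felCat5 chromosome B3, 108575434 to 108661057. SIX2, a mesenchymal factor, was lower in the affected cat at 2.07 and 0.230 FPKM, a log2 ratio of −1.32. It passed the minimum through the normal library alone, so the filter fixed its direction. SIX5, which overlaps DMPK in the table, had 19.8 and 15.3 FPKM, and reads of overlapping genes may be divided wrongly between them. SIX4, which acts in muscle and placodes, stayed under the minimum at 0.582 and 0.548 FPKM.

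Among T-box genes, 5 of 13 passed the minimum, TBX2, TBX3 and TBX20 in both libraries and TBX5 and TBX19 through the affected library alone. Over all 13, 8 were higher and 4 lower in the affected cat, against 6463 higher and 7262 lower over all single-symbol genes. Of the 8, TBX4, TBX10 and TBX21 stayed under 1 FPKM in both libraries. TBX3, which with TBX2 and TBX5 marks the dorsal optic cup, was listed at 1.81 and 6.49 FPKM, a ratio of 3.58 and a log2 ratio of 1.41. TBX5 had 0.985 and 1.68 FPKM, a log2 ratio of 0.43. TBX20, known from heart and motor neurons, had 14.9 and 31.5 FPKM, a log2 ratio of 1.03 that went just under 2-fold, to 0.996, with both libraries rescaled to the same sum. TBX19, a factor of pituitary corticotrophs, had 0.314 and 1.59 FPKM, a log2 ratio of 0.98 that was 2.03 with 0.1 FPKM added. TBX1, TBX15 and TBX18, which act in craniofacial mesenchyme and muscle, were below 0.5 FPKM in both libraries and each had the lower value in the affected one.

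The forkhead family had the most members past the minimum, 15 of 27. FOXF2, a factor of cranial mesenchyme and vascular mural cells, was listed at 20.2 FPKM in the normal cat against 3.21 FPKM in the affected cat. The normal value was 6.30 times the affected value, and the log2 ratio of −2.33 stood at percentile 1.11 of the ratios of single-symbol genes past the minimum. It was the lowest of the members with 1 FPKM added, but with 0.1 FPKM added DLX5, at −3.13, FOXM1, at −3.05, and the low genes SIX2, LHX6 and MSX1 lay below FOXF2, at −2.62. A second row of the same name in the same span had 1.21 and 0.0805 FPKM. The locus lies on chromosome B2 of felCat5 from 27072330 to 27178885, and FOXC1, a forkhead gene of the same mesenchyme that the rule leaves out, had 28.7 and 8.94 FPKM. Both were lower in the affected library.

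FOXM1, which drives the genes of mitosis, was listed at 4.19 and 0.417 FPKM, a log2 ratio of −1.87. All 10 listed cell division markers were at least 2-fold lower in the affected library too, 5 of them at 1 FPKM in both libraries, none of them was at 0, and they summed to 120.2 and 13.8 FPKM. The part of proliferating cells in the FOXM1 difference was not tested. FOXO6, a FOXO gene known from the nervous system, had 3.76 and 0.833 FPKM, a log2 ratio of −1.38.

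The row named FOXI2 had a log2 ratio of 1.94, with 8.40 FPKM in the normal cat against 35.0 FPKM in the affected cat. Its name is in doubt. In the table it lies on chromosome A3 of felCat5 from 103827054 to 103832423 between THNSL2 and TEX37, and in RefSeq annotation of a later cat assembly the gene between those neighbours is FOXI3, a factor of ectodermal placodes. Of 110 members found in RefSeq by symbol, 107 shared at least 1 of up to 10 flanking genes with it, and FOXI2, MSX1 and PBX3 shared none. Without these 3 rows, 5 members were at least 2-fold higher and 5 at least 2-fold lower.

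Of the 15 forkhead genes past the minimum, 10 were within 2-fold with 1 FPKM added. FOXP1 was listed at 10.7 FPKM in both libraries. FOXO1, a target of insulin signalling, had 11.7 and 9.79 FPKM, FOXO3 had 13.9 and 18.8 FPKM, and FOXO4 had 11.7 and 16.0 FPKM. FOXJ2 had 14.6 and 19.7 FPKM and FOXJ3 had 14.9 and 24.0 FPKM. They and FOXK1, FOXN3 and FOXP4 were each higher in the affected library, with log2 ratios from 0.15 for FOXP4 to 0.65 for FOXJ3, and none passed 2-fold. FOXN2 had 5.90 and 3.80 FPKM. Genes of other cell types were low, with FOXJ1 of motile cilia at 0.653 and 0.547 FPKM, FOXP3 of regulatory T cells at 0.553 and 0.437 FPKM, TBX21, a T-box gene of T cells, at 0.160 and 0.340 FPKM, and FOXA1 of gland epithelium at 0.165 and 0.0693 FPKM. FOXF1, the mesenchymal relative of FOXF2, had 0.837 and 0.133 FPKM, and FOXN4, of retinal interneuron precursors, had 0.6999 and 0.109 FPKM. FOXN1, of skin and thymus epithelium, was listed at 0.0375 FPKM and at 0. FOXA2 and FOXI1 were listed at 0 in both.

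DLX and MSX genes encode homeodomain factors of cranial neural crest, jaw and skull, and of those past the minimum MSX2 alone reached it in both libraries. DLX5 was listed at 3.41 FPKM in the normal cat against 0.2997 FPKM in the affected cat, a log2 ratio of −1.76. On 1 kilobase of effective length this would be about 242.1 and 20.2 fragments. DLX3 and DLX4, genes of surface epithelium and placenta, had 0.602 and 0.123 FPKM and 0.615 and 0.0530 FPKM, both under the minimum. DLX1, DLX2 and DLX6 stayed at or below 0.201 FPKM in both libraries. MSX2 had 3.63 and 1.83 FPKM, a log2 ratio of −0.71. The row named MSX1, whose flanking genes are not those of MSX1 in RefSeq and whose span is shared with other loci, had 1.17 and 0.0988 FPKM.

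The other LIM homeodomain genes were low beside LHX2, and 3 of them passed the minimum, each through the normal library alone. LHX3, of pituitary and motor neurons, had 2.78 and 0.929 FPKM, a log2 ratio of −0.97. LHX4, its close relative, which is also found in retinal bipolar cells and cones, had 2.49 and 0.906 FPKM. LHX6, of interneurons and jaw mesenchyme, had 1.01 and 0.0720 FPKM. LHX9 was listed at 0.802 and 0.6004 FPKM, and LHX1, of horizontal cells, at 0.0269 and 0.0569 FPKM. None of these passed 2-fold with the added 1 FPKM on the deposited scale. After rescaling to the same sum LHX3, at −1.15, LHX4, at −1.04, and LHX6, at −1.21, were lower by 2-fold. With 0.1 FPKM added on the deposited scale LHX3, LHX4 and LHX6 were at −1.48, −1.36 and −2.69.

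PAX and IRX genes were near or under the minimum. PAX3, of neural crest and muscle precursors, was listed at 0.983 and 1.01 FPKM and was the only PAX gene past it. PAX2, of the optic stalk, had 0.431 and 0.144 FPKM, and PAX5, of B cells, had 0.0264 and 0.282 FPKM on the row used and 0.219 and 0.0821 FPKM on a second one. PAX7, of muscle stem cells, had 0.0186 FPKM in the normal library and was listed at 0 in the affected one. PAX9 had 0.0338 FPKM in the affected library and 0 in the normal one. PAX6, which the rule leaves out, stood far above them at 147.8 and 211.0 FPKM. IRX5, a factor of retinal bipolar cells, had 2.09 and 1.66 FPKM, IRX6 had 1.16 and 0.399 FPKM and IRX4 had 0.484 and 0.0360 FPKM. With 1 FPKM added, no PAX or IRX gene past the minimum differed by 2-fold, but with 0.1 FPKM added IRX6 did, at a log2 ratio of −1.34.

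No HOX gene reached 1 FPKM in either library. Of 32 HOX genes, 18 were listed at 0 in both libraries and 14 had a value in at least 1. The 32 genes together summed to 1.87 FPKM in the normal cat against 0.270 FPKM in the affected cat. In the normal library 4 of them reached 0.1 FPKM, which were HOXD9 at 0.724, HOXD8 at 0.518, HOXB2 at 0.217 and HOXB3 at 0.126 FPKM. In the affected library HOXD9 was listed at 0, HOXD8 had 0.0461, HOXB2 0.0255 and HOXB3 0.0149 FPKM, and only HOXB7 reached 0.1 FPKM, at 0.124 against 0.0295 FPKM in the normal library. Of the 14 genes with a value, 11 were higher in the normal and 3 in the affected cat, against 7262 lower and 6463 higher in the affected cat over all single-symbol genes. On 1 kilobase of effective length, 3 fragments would give 0.0422 FPKM in the normal cat against 0.0445 FPKM in the affected cat, and 7 of the 14, 5 of them higher in the normal cat, were under these levels in both libraries. The lengths of the HOX transcripts are not in the table, so their own limits are not known.

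**Figure D3:**
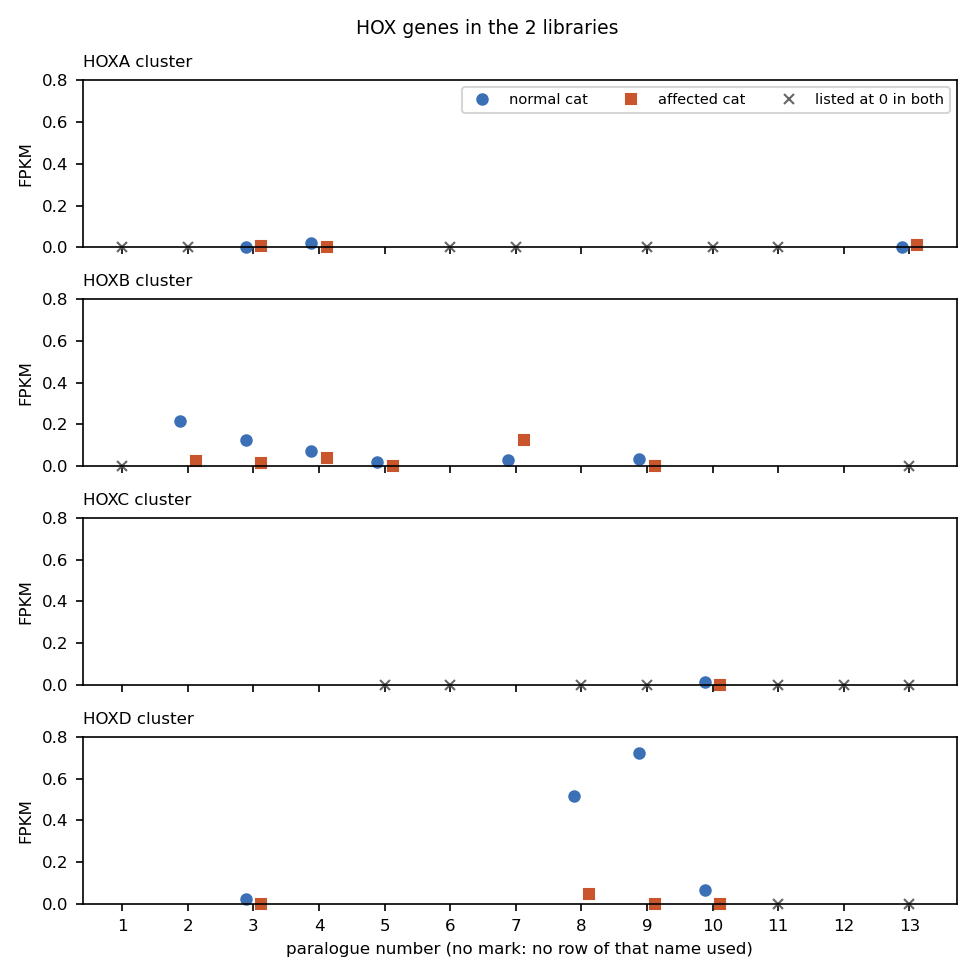
FPKM of the 32 HOX genes by cluster and paralogue number, with a circle for the normal cat, a square for the affected cat and a cross for genes listed at 0 in both. The highest points are HOXD9 and HOXD8 in the normal cat at 0.724 and 0.518 FPKM, and the HOXA and HOXC clusters lie at or near 0.

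The HOX values of the normal cat came mostly from neighbours in the HOXD cluster. HOXD9 and HOXD8 lie next to each other on chromosome C1 of felCat5, from 164302689 to 164303458 and from 164307757 to 164313424. HOXD10, on their other side, had 0.0688 FPKM in the normal library and 0 in the affected one, whereas HOXD11 and HOXD13 were listed at 0 in both. The HOXD genes summed to 1.33 FPKM in the normal cat against 0.0461 FPKM in the affected cat, the HOXB genes to 0.505 and 0.202 FPKM, and those of HOXA and HOXC to at most 0.0221 FPKM per cluster and library.

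Members were also read by the tissue in which they are known to act, in lists that overlap, over the genes that reached 1 FPKM in both libraries. Over all such single-symbol genes 5.93% were higher and 6.14% lower by 2-fold, and these lists are too short to set a share against that. Of 5 optic cup and retinal field genes, SIX6 and TBX3 were higher by 2-fold in the affected cat and 0 were lower, with a median log2 ratio of 0.36. Of 4 genes of periocular mesenchyme and neural crest, FOXF2 was lower and ZIC2 higher by 2-fold, with a median of 0.057. MSX2 was also lower and ZIC1 also higher, both within 2-fold. Over the 15 listed genes at any level, 5 were higher and 10 lower, against 6463 higher and 7262 lower over all single-symbol genes. ZIC1 and ZIC2 stand in this list for their part in early neural crest, although they also act in the optic cup. DLX5, SIX2 and the row named MSX1, whose name is in doubt, also belong to it but passed through the normal library alone. The 2 genes of retinal cell subtypes, FOXP1 and MEIS2, were within 2-fold, and LHX3 and LHX4 of that list passed through the normal library alone. On the deposited scale with 1 FPKM added, none of the 3 lens, 2 skeletal muscle, 2 surface epithelium and 2 lymphocyte genes passed 2-fold. MEIS1 of the lens list was at 1.02 both with 0.1 FPKM added and with the affected library rescaled to a median of 0. Of 4 endothelial and mural genes, TBX20 was higher and FOXF2 lower by 2-fold, and of 6 genes of cell division and metabolism, without FOXM1, 0 passed it. These lists were written with earlier results of the same libraries known.

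The other transcription factors of eye and neural crest, which are not members, were read in the same way. Of 43 on the list 38 were listed and 27 reached 1 FPKM in both libraries, of which 0 were higher and 9 lower by 2-fold in the affected library, with a median log2 ratio of −0.42. Among the 9 were FOXC1, PITX1, LMX1B, TFAP2B, PRRX1, PRRX2 and SNAI2, which are known from cranial mesenchyme or crest. Another 5 reached 1 FPKM in the normal library alone, of which ALX4, TCF21 and EYA4 were lower by 2-fold. PRRX2 had 47.9 and 8.96 FPKM and TFAP2B had 40.8 and 8.38 FPKM. With 1 FPKM added, optic cup and retinal factors of the list were within 2-fold and in both directions. The optic cup factor RAX had 31.9 and 57.4 FPKM and the photoreceptor factor CRX 76.5 and 120.1 FPKM, whereas MITF, of pigment epithelium, had 28.0 and 20.8 FPKM and the bipolar cell factor VSX1 had 4.32 and 1.71 FPKM. VAX1, of the ventral cup, was listed at 0 in both.

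**Figure D4:**
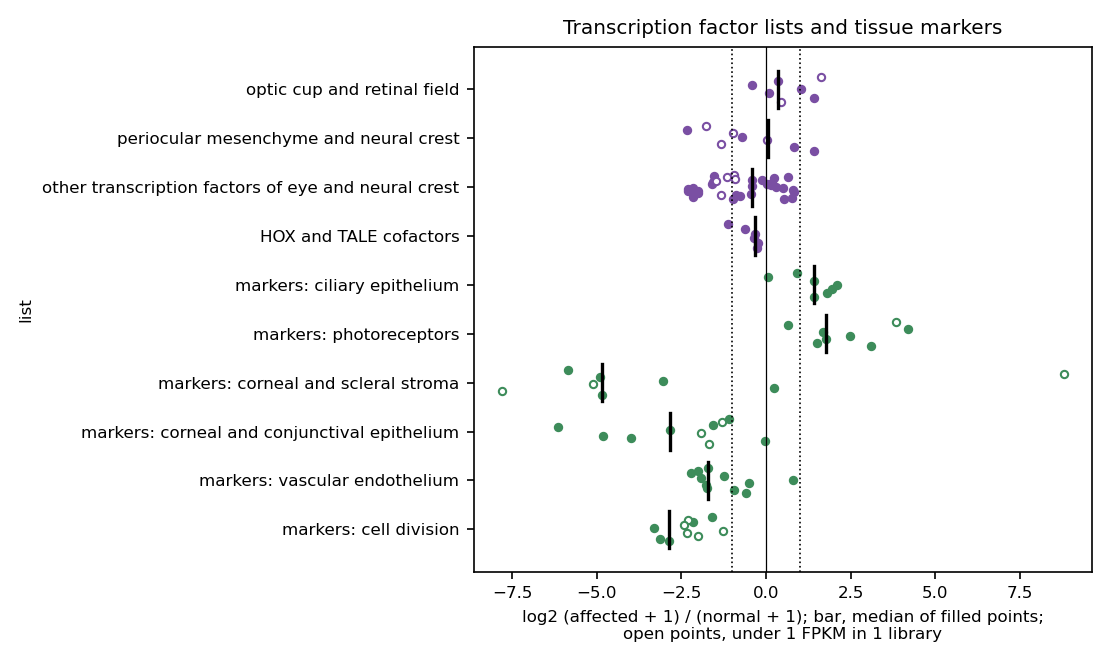
Log2 ratio, affected over normal, of genes past the minimum in lists of transcription factors (purple) and of tissue markers (green), with filled points for genes at 1 FPKM in both libraries, open points for genes at it in only 1, a bar at the median of the filled points and dotted lines at 2-fold. The medians are 0.36 for optic cup factors and 0.057 for mesenchymal factors, beside 1.42 for ciliary epithelium markers and −4.86 for stroma markers; the open point at the far right is COL1A2, listed at 0 in the normal library.

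Of 7 ciliary epithelium markers at 1 FPKM in both libraries 5 were higher by 2-fold in the affected cat and 0 lower, with a median log2 ratio of 1.42, and of 7 such photoreceptor markers 6 were higher and 0 lower, with a median of 1.78. Of 5 such markers of corneal and scleral stroma 4 were lower and 0 higher, with a median of −4.86. Of 7 corneal and conjunctival epithelium markers 6 were lower, and of 11 endothelial markers 7 were lower, and the summed levels of all listed markers were 637.0 and 87.1 FPKM and 219.3 and 88.8 FPKM. No marker of these 5 lists other than COL1A2 was listed at 0 in either library. Of 10 listed skeletal muscle markers 3 passed the minimum, with CKM at 8.40 and 33.0 FPKM, DES at 20.0 and 12.99 FPKM and TNNC2 at 0.505 and 2.93 FPKM, and MYOG and MYF5 were listed at 0 in both libraries. The part of these tissues in the differences of the patterning factors was not tested.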

How the data were processed

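The deposited FPKM were calculated by the authors with Cufflinks 2.1.1 and cummeRbund after alignment to felCat5 with TopHat2 2.0.9 and Ensembl gene predictions. The table has 1 value per library for each of 32065 loci, and the scaling between libraries is not given in the sources used here. No count model was fitted, since FPKM are normalized. Rows with a single symbol were kept, and of repeated names the row with the higher mean. The pseudocount was 1, the minimum 1 FPKM in at least 1 library and the threshold 2-fold. File starts count from 0 and were moved to 1-based positions. Fragment steps were fitted at 2398 and 2227 unnamed loci, where 97.5% and 96.2% of values lay within 0.03 of a whole fragment, on scales of about 71037900 and 67440000 fragments in the normal and affected library. Such precision covers counting error only. Neighbours were compared with RefSeq annotation of assembly F.catus_Fca126_mat1.0, used for names and order alone. The ratio and fragment steps were tested on simulated data.

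The families, and so the members, and the lists were chosen with earlier results of these data known, and symbols then set which genes belong. Named are members past 2-fold, the highest of each family, members of the role lists, HOX genes past the minimum (of which there were none, so that those named were chosen after their values were seen), and listed non-members past 2-fold; some of these genes are not reported here by name or value and are left out of the plots by gene. The role lists cover optic cup, retinal subtypes, lens, mesenchyme, endothelium, muscle, surface epithelium, cell division and lymphocytes. Marker lists also covered lens, pigment cells, Schwann cells and macrophages, whose counts past 2-fold stand in the last part. Alternatives were another pseudocount, 2 rescalings, 2 filters, summed repeated names, joined names added and a 4-fold threshold, and 3 were added after the data were seen. Reading lists over genes at 1 FPKM in both libraries was also chosen after the data were seen. The tools were pandas 2.3.3, numpy 2.4.6 and, for plots, matplotlib 3.10.9, under Python 3.11.15.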

Additional observations from a re-analysis of the deposited data

How the results depend on the processing

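Members at least 2-fold lower numbered 5, and 10 with a pseudocount of 0.1 or after rescaling each library to a sum of 1000000, and 1 where a mean of 5 FPKM or, chosen after seeing the data, 1 FPKM in both libraries was required. At 4-fold 0 were higher and 1 was lower. The median log2 ratio of the members, 0.15, was −0.0089 after that rescaling, 0 with no minimum, 0.38 under the 5 FPKM mean and 0.32 with 1 FPKM in both. Members counted were 112 with no minimum and 24 under that mean, against 41, since the filter sets which genes enter. Of the 11 members past 2-fold, 10 were past it under every other pseudocount, scaling, filter or row choice that gave them a value, and TBX20 was not. The added FPKM and the scaling alone can move the ratio of a single gene with 1 row. Of 41 members 16 shifted by 0.1 or more (log2) with 0.1 FPKM added, 13 after rescaling to a sum and 0 after rescaling to the median, and 2 changed sign, FOXP1 and PAX3, whose reported ratios were −0.0064 and 0.018. For the other changes the cause was not tested. No paired analysis was possible because there is 1 library a condition, and there was no replicate to leave out.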

Other observations

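Some patterning factors stand in the table only on rows that join several names, so their own levels could not be read. The row that joins EHBP1 and OTX1 had 33.5 FPKM in the normal cat against 62.9 FPKM in the affected cat, the row with FOXS1 had 9.67 and 9.09 FPKM, and the row of AGER and PBX2 had 34.0 and 27.9 FPKM. The row with FOXP2 had 4.76 and 6.25 FPKM. A second row of SIX6, joined with 2 Ensembl identifiers, had 10.9 and 23.2 FPKM, and its ratio of 2.12 was close to the 2.101 of the row used.

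Some unnamed loci that share a span with a member had a ratio near its own. In the span of FOXF2, 2 unnamed loci had 8.59 and 1.33 FPKM and 4.53 and 0.714 FPKM, and the normal values were 6.48 and 6.34 times the affected ones, against 6.30 times for FOXF2. In the span of TBX20 an unnamed locus had 12.4 and 25.3 FPKM, a ratio of 2.03 against 2.11. In the span of OTX2 an unnamed locus was higher in the affected cat, with 3.999 FPKM in the normal cat against 5.33 FPKM in the affected cat.

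Other marker lists were counted over genes with 1 FPKM in at least 1 library, so that genes which passed in 1 library alone are higher there by the filter. Of 11 lens markers 5 were at least 2-fold higher and 2 lower in the affected library, of which CRYAA was listed at 0 there. Of 7 pigment cell markers 0 were higher and 3 lower, of 8 Schwann cell markers 1 was higher and 3 lower, and of 7 macrophage and leukocyte markers 3 were higher and 0 lower. The 8 trabecular meshwork markers had 4 higher and 2 lower, and the 3 skeletal muscle markers past the minimum had 2 higher and 0 lower.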
